A study of Mus musculus with 36 samples.

Results

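Potassium channel genes, taken here as every mouse gene whose symbol begins with Kcn, were followed through 3 brain regions of Dicer cKO mice. Kcnj13 was not analysed here. The array annotation paired 166 single-gene probe sets with 83 such genes, of 18194 genes in all. Each probe set consists of several short oligonucleotides against the same transcript. Of the 83 genes, 80 code for proteins and 3 are noncoding RNAs that carry a channel's name (Kcnq1ot1, Kcnmb4os1 and Kcnmb4os2). By structure and role the list holds 22 voltage-gated pore subunits, 9 silent voltage-gated subunits and 12 auxiliary subunits of voltage-gated channels. It also holds 8 pores of the family named calcium- and sodium-activated channels, Kcnu1 included, 3 beta subunits of the BK channel, 14 inward rectifiers and 12 leak channels. Thus not every gene of the list forms a pore by itself. Where a gene had several probe sets, the one with the highest mean in the tissue was used.

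Potassium channels let potassium leave the cell and so set the resting potential of a neuron, repolarize it after a spike and limit how fast it can fire. Voltage-gated (Kv) channels open on depolarization, calcium-activated channels open after calcium entry and carry the afterhyperpolarization, and inward rectifiers and leak channels hold the membrane near rest. Glia depend on some of the same families: Kcnj10 and Kcnj16 buffer potassium in astrocytes, and Kcnk13 and Kcnk6 are channels of microglia.

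All mice of both groups carried the Camk2a-CreERT2 transgene and 2 floxed Dicer alleles on a C57BL/6J background. Injections began at 8 weeks of age and lasted 5 days, with a total of 10 mg tamoxifen for cKO mice and the vehicle for controls, and cortex, hypothalamus and hippocampus were collected 4 or 8 weeks later, at 12 or 16 weeks of age. Each of the 12 groups had 3 arrays from 3 animals. The Camk2a promoter limits excision to neurons that use it, mostly excitatory neurons of the forebrain, whereas the RNA came from whole tissue with interneurons, glia and vessels in it. Of 11 excitatory neuron markers on the array, the filter on low values kept 11 for the cortex, 8 for the hypothalamus and 7 for the hippocampus. Passing the filter shows only that a signal lies above a limit, and cannot show where excision took place. All control mice received vehicle, so the effect of tamoxifen itself cannot be told apart from that of the excision. The study's methods describe the cKO mice as obese at 4 weeks and as losing weight at 8 weeks. The part of body weight and feeding in the differences was not tested.

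Values are log2 intensities, on which a difference of 1 is a 2-fold change, and they were normalized by the authors for each tissue alone. In each tissue genes were ranked by the third highest of their 12 values and the top 15000 were tested, so that this value was at least 3.99 (cortex), 4.88 (hypothalamus) or 4.25 (hippocampus). This kept 73, 75 and 76 of the channel genes, 71 of them in all 3 tissues. Kcne2, Kcne3, Kcnj15, Kcnj2, Kcnmb4os1 and Kcnv2 passed in no tissue. A gene was called when its p from limma, adjusted over all 15000 genes, was under 15%, the threshold of the study's methods. The error behind each comparison was small for most members, with a median residual SD of 0.158 (cortex), 0.118 (hypothalamus) and 0.15 (hippocampus), against 0.149, 0.103 and 0.118 over all genes tested.

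Some arrays stood apart from the rest. In the cortex, the median distance of the channel genes from their means over the 12 arrays was 0.264 for the third 4-week control and 0.168 or less for the other arrays. Over all genes this array (0.234), the second 8-week cKO (0.156) and the third 4-week cKO (0.142) had the largest distances in the cortex, and these are the 3 arrays left out together below. In the hippocampus, the first 8-week cKO array was shifted in a particular set of members, described with the 8-week results of that tissue. In the hypothalamus, the first and second 8-week cKO arrays had high microglia markers and the third did not.

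In control mice the same probe set was used in all 3 tissues for 73 members, among them the 6 that passed the filter in no tissue. Since the tissues were normalized separately, levels are given here relative to the median of all probe sets in the controls of that tissue, as a description and with no test. The range of these relative levels over the 3 tissues had a median of 0.781 and was over 1 for 30 members, of which the cortex was highest for 20, the hippocampus for 7 and the hypothalamus for 3. The median subtracted was lowest in the cortex, which raises the relative levels of that tissue, so the counts depend on this scaling. Kcnk1, for instance, had mean log2 intensities of 10.19 in the cortex and 10.34 in the hippocampus, but relative levels of 4.93 and 4.50. The same counts over all genes are not given, so these counts do not set channel genes apart from others.

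On this scale the members with the widest range were mostly cortical. Kcnv1, a silent subunit that modifies other Kv channels, had a relative level of 3.20 in cortex, 0.18 in hypothalamus and -0.68 in hippocampus. Kcnj4, the strong inward rectifier Kir2.3, was at 2.68, -0.87 and -0.39 in the same order. Kcnmb4, the neuronal beta subunit of the BK channel, was at 4.52, 2.66 and 1.24, so that it stood above the median everywhere. Kcna5, the Kv1.5 pore, had another pattern, with 2.45 in the hypothalamus against 0.0080 in the cortex and -0.23 in the hippocampus. Kcnab3, a cytoplasmic beta subunit of Kv1 channels, was highest in the hippocampus at 2.75, against 1.92 in the cortex and 0.52 in the hypothalamus. At the other end, Kcnn3 stood at -1.16, -1.12 and -1.07, a range of 0.090.

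In the cortex 4 weeks after treatment, 4 of the 73 channel genes tested were called (5.48%), 2 higher and 2 lower in cKO mice. This share lies below that of all genes, of which 8.39% were called (1113 higher and 145 lower). Kcnd3 and Kcnj4 rose, Kcnn3 and Kcnj12 fell, and no other member passed the threshold. At an unadjusted p under 0.05 there were 13 members (17.8%, against 21.5% of all genes). Channel genes also shared the general lean of this tissue toward higher values in cKO mice: 50 of 73 were higher and 23 lower, with a median difference of 0.083, while 74.5% of all genes were higher with a median of 0.117. With the arrays centred on their medians the median of the members was 0.0338 and that of all genes 0.0673, and 40 members were higher and 33 lower. In whole tissue, fewer cells of a type and less RNA per cell cannot be told apart.

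Among the Kv pores, Kcnd3 encodes Kv4.3, which carries the fast transient A-type current that delays firing. Its log2 level on probe set 1435720_at at 4 weeks was 8.49, 8.64 and 8.62 in cKO mice against 8.22, 8.26 and 8.16 in controls. The groups did not overlap, and Kcnd3 rose by 0.37 on the log2 scale, or 1.29-fold (SE 0.0841, adjusted p = 0.0784 from limma). Its 3 other probe sets, all of lower level, differed by 0.10, 0.27 and 0.51 in the same direction. The call was kept without any 1 array of the 12 in 9 cases and lost without cKO replicate 2 or without control replicate 1 or 2 of 4 weeks, with an adjusted p up to 0.271. Without the third 4-week control, the array that stood apart, the difference was 0.34 (adjusted p = 0.0281 from limma).

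The partners of Kv4 channels were mixed. Dpp6, a membrane protein that speeds Kv4 gating and trafficking and is no member of the Kcn list, had 10.1, 10.2 and 9.94 in cKO mice and 9.56, 9.65 and 9.53 in controls, and it rose by 0.49 (SE 0.0894, adjusted p = 0.0494 from limma). Its relative Dpp10 differed by 0.12 (adjusted p = 0.426). The 4 Kcnip genes, whose products are calcium-binding Kv4 subunits, differed by 0.046 to 0.16, none called, and the other Kv4 pores Kcnd1 and Kcnd2 differed by 0.11 and -0.27. Kcnd2 was spread over the controls at 9.58, 9.63 and 8.42, the last on the array that stood apart, against 9.13, 8.90 and 8.79 in cKO mice. Without that array its difference was -0.67 (adjusted p = 0.0195 from limma), a call that the full set of arrays did not give. Other probe sets of Kcnd2 differed by -1.81 (mean level 7.59, unadjusted p = 0.0133), -0.37 and -0.21 on all arrays. Of 9 tested partner genes outside the Kcn symbols, all 9 were higher in cKO mice (median 0.115) and 2 were called, the other being Amigo1, a partner of Kv2 channels (difference 0.54, SE 0.109, adjusted p = 0.0587). The median of the partners was near that of all genes (0.117), of which 74.5% were higher and 8.39% were called.

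Of the inward rectifiers, 11 of 14 were tested and 1 was called in each direction. Kcnj4 was measured on probe set 1451808_at at 8.60, 8.42 and 8.36 in cKO mice against 7.87, 7.80 and 8.31 in controls. All 3 cKO arrays were higher than the controls, though the lowest exceeded the third control by little, and Kcnj4 rose by 0.47, or 1.38-fold (SE 0.136, adjusted p = 0.117 from limma). Without the third control the difference was 0.63 (adjusted p = 0.0120), and 6 of 12 omissions of 1 array lost the call.

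Kcnj12, another strong rectifier (Kir2.2), ran the other way on probe set 1422871_at. It was at 5.25, 4.79 and 5.74 in cKO mice and 5.76, 5.64 and 6.10 in controls, so that 1 cKO array lay within the range of the controls. It fell by 0.58 (SE 0.191, adjusted p = 0.141 from limma), the call with the widest error of the 4, and it was lost in 9 of 12 omissions of 1 array. Without the third control it was -0.44 (adjusted p = 0.123). Kcnj16, a Kir channel of astrocytes, had 6.04, 6.19 and 5.98 against 5.48, 5.88 and 5.91, a difference of 0.32 that was not called (SE 0.156, adjusted p = 0.257). Its partner Kcnj10, the main Kir channel of astrocytes, differed by 0.0075 (SE 0.106), and Kcnj8, the pore of the KATP channel of mural cells, by 0.048 (SE 0.101). Kcnj3, a subunit of the G protein-gated channels that neuromodulators open, differed by -0.24 (adjusted p = 0.363).

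Of the family of calcium- and sodium-activated channels all 8 were tested, 4 were higher and 4 lower, and 1 was called. Kcnn3, the SK3 channel of the afterhyperpolarization, was at 3.78, 3.65 and 3.73 in cKO mice and 4.36, 4.14 and 4.04 in controls on probe set 1421632_at. The groups did not overlap, and Kcnn3 fell by 0.46, or to 0.725 of the control level (SE 0.106, adjusted p = 0.0784 from limma). These values are close to the limit of 3.99 for testing, and the 3 cKO arrays lay under it, so the gene passed through its other arrays. It was also called with genes ranked by their mean, but a filter that kept fewer genes left it out. Omitting 1 array lost the call in 4 of 12 cases, and without the third control the difference was -0.54 (adjusted p = 0.0144).

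Other members of this group were not called. Kcnn4, an intermediate-conductance channel known from blood cells and microglia, differed by -0.41 (SE 0.165, adjusted p = 0.196), and Kcnt2, a sodium-activated pore, by -0.37 (adjusted p = 0.320). The other probe set of Kcnn4, of lower level, differed by 0.14. Kcnu1, known from sperm, differed by 0.43 (SE 0.169, adjusted p = 0.184) with groups that did not overlap. Kcnma1, the pore of the BK channel, read 7.09, 7.47 and 8.12 in cKO mice and 7.88, 7.85 and 8.02 in controls, a difference of -0.36 (SE 0.217). Its 4 other probe sets differed by -0.81, 0.20, -0.41 and -0.99, and none of the opposed pairs both passed an unadjusted p of 0.05. Kcnmb2 and Kcnmb4, its beta subunits, differed by 0.13 and 0.10, and Kcnn2, the SK2 channel, by 0.11 (adjusted p = 0.564).

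**Figure D1:**
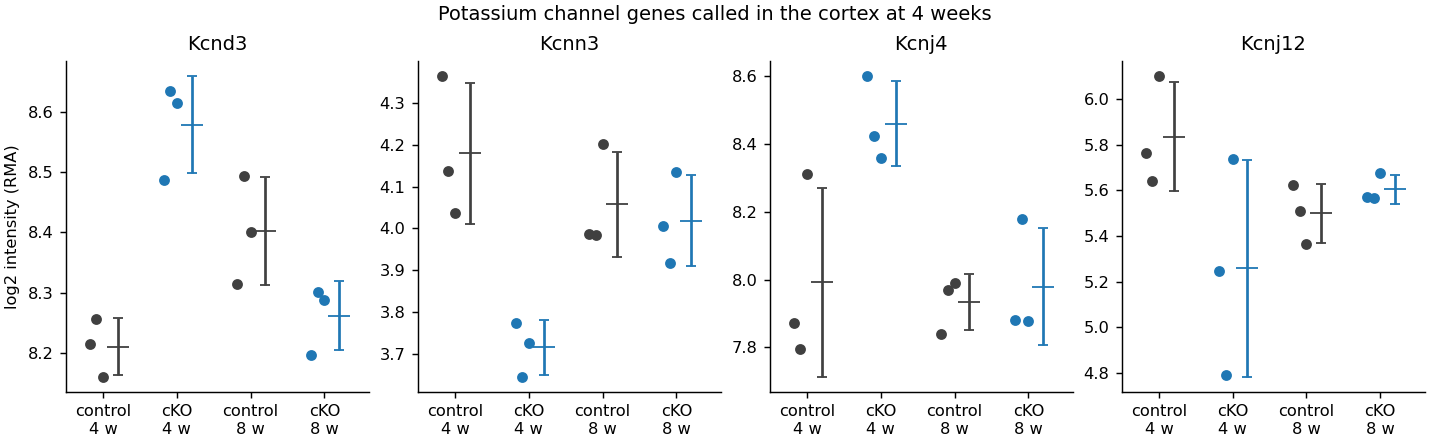
Log2 intensity in the cortex of the 4 channel genes called at 4 weeks, for the 3 arrays of each group (points) with their mean and SD (bars), at 4 and 8 weeks; each panel has its own vertical scale, which does not start at 0. Kcnd3 and Kcnj4 lie higher and Kcnn3 lower in every 4-week cKO array than in the controls, Kcnj12 overlaps, and at 8 weeks Kcnd3 lies lower in cKO arrays.

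Beyond these 4 genes no member was called in the 4-week cortex. Of the 20 Kv pores tested, Kcnd3 included, 12 were higher and 8 lower (median 0.0894). Kcna5 had the largest difference of all members, with 6.30, 5.56 and 5.60 in cKO mice and 5.44, 5.20 and 4.92 in controls. The groups did not overlap, but the difference of 0.63 (SE 0.232) had an adjusted p of 0.168 in limma. Kcnc4, a fast Kv3 pore, differed by 0.27 (adjusted p = 0.195).

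The Kv pores that cortical neurons are best known for were not called, and their probe sets gave unlike values. On the sets of highest level Kcna1 differed by 0.13, Kcna2 by -0.038, Kcnc1 by -0.15 and Kcnq3, a subunit of the M-current, by -0.048, with SE of 0.0906 to 0.0988 and adjusted p of 0.366 or more. Another probe set of Kcna2 (mean level 8.64) differed by -0.51 (unadjusted p = 0.00886), and another of Kcnc1 (mean level 8.40) by -0.68 (unadjusted p = 0.0366), while a further set of Kcnc1 differed by 0.23. The 8 silent subunits tested had a median of 0.115, with 7 higher. Kcng1 differed by 0.38 (SE 0.146, adjusted p = 0.180) and Kcng2 by 0.30 (adjusted p = 0.223), both with groups apart.

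The 10 auxiliary subunits of Kv channels tested had a median of 0.097, and Kcne1l differed by 0.30 (adjusted p = 0.203). The 12 leak channels were evenly split at 7 higher and 5 lower (median 0.0054). Among these Kcnk10 differed by 0.36 (adjusted p = 0.200), Kcnk6 by 0.33 (adjusted p = 0.192), Kcnk13 by 0.16 (adjusted p = 0.346) and Kcnk1, a widespread background channel, by 0.0070 (SE 0.0932). Over all members, 13 had groups that did not overlap (10 higher, 3 lower), or 17.8% against 20% of all genes.

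**Figure D2:**
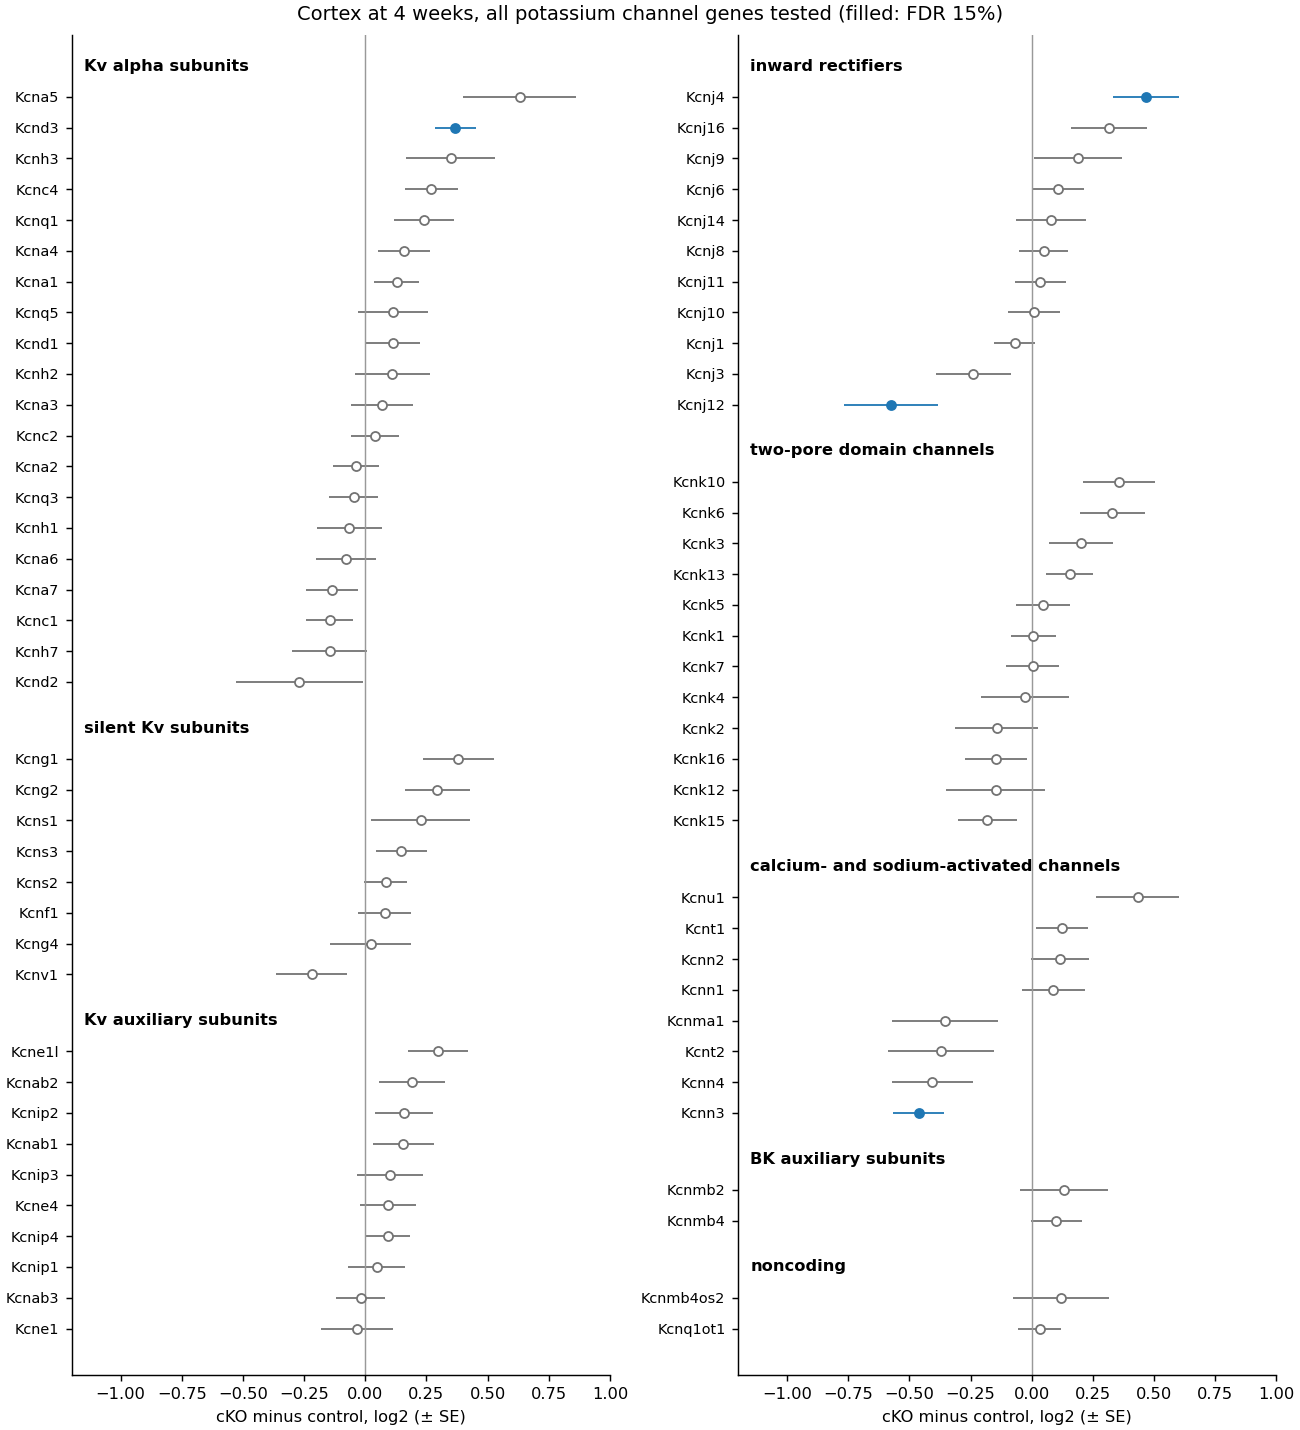
Cortex 4 weeks after treatment: cKO minus control (horizontal axis, log2, points) with its SE (bars) for the 73 channel genes tested, grouped by family and ordered by size; filled points passed an adjusted p of 15%. Differences run from -0.58 (Kcnj12) to 0.63 (Kcna5), and the family of calcium- and sodium-activated channels is spread to both sides.

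Markers of some other cells moved in the same tissue. In the 4-week cKO cortex, 11 of 18 leptomeninges markers were called higher and all 18 were higher (median 0.711), with a log2 summed level of 13.7 on every cKO array against 13.2 to 13.5 in controls. Their median deviation from the mean of the 12 arrays was 0.327 to 0.44 on the cKO arrays and -0.403, -0.363 and 0.036 on the controls, so that the third control lay closest to the cKO arrays. Of 10 mural cell markers 10 were higher (median 0.212, none called), and of 15 microglia markers 13 (median 0.211, 1 called). Of 11 excitatory neuron markers 5 were higher, with 1 called lower. Higher values were found for 9 of 11 endothelium, 8 of 11 oligodendrocyte and 7 of 13 astrocyte markers. The same held for 5 of 10 inhibitory neuron and 1 of 6 choroid plexus markers. Of all genes, 74.5% were higher (median 0.117). A sign of RNA quality moved too: the 3′ minus 5′ log2 signal of actin, which grows as RNA degrades, was 1.12, 1.12 and 1.14 on the cKO arrays and 1.30, 1.33 and 1.07 on the controls, the third control again nearest to cKO. That of Gapdh was 0.0382 to 0.114 on the cKO arrays and -0.0206, 0.07 and 0.205 on the controls. The part of these markers and signs in the differences of the channel genes was not tested. Which cortex arrays were used had a strong effect on the number of calls: leaving out the third 4-week control gave 27 called members (22 higher, 5 lower) among 6375 called genes, leaving out cKO replicate 3 gave 11, and leaving out cKO replicate 1 gave 1. No member was called without cKO replicate 2, control replicate 1 or control replicate 2 of 4 weeks, and 2 were called without control replicate 1 or 2 of 8 weeks. Apart from the 6375, no count over all genes is given for these omissions, so the counts are no result about channel genes.

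At 8 weeks in the cortex no channel gene was called, as for all genes (0% of 15000; 702 of these at an unadjusted p under 0.05), and 5 members had an unadjusted p under 0.05. The members were split evenly, 35 higher and 38 lower (median -0.0049, against 0.0040 for all genes). Kcnf1, a silent subunit, had the lowest p, with 8.52, 8.62 and 8.61 in cKO mice and 8.85, 8.95 and 9.03 in controls (difference -0.36, SE 0.110, adjusted p = 0.945 from limma). Kcnab3, Kcnj3 and Kcnt2 followed with differences of -0.29, -0.42 and -0.56, and for all of these the groups did not overlap. Kcnma1 ran the other way at 7.77, 7.98 and 7.79 against 7.59, 7.36 and 6.93, a difference of 0.55 (SE 0.217), which turned to -0.82 on its most variable probe set. In all, 10 members had groups apart (4 higher, 6 lower), 13.7% against 14.1% of all genes.

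None of the 4 genes called at 4 weeks was called at 8 weeks. They were picked by their 4-week values, so smaller differences at 8 weeks do not by themselves show a loss. At 8 weeks Kcnn3 differed by -0.039, Kcnj4 by 0.046 and Kcnj12 by 0.11. Kcnd3 was lower in every 8-week cKO array, at 8.20, 8.30 and 8.29 against 8.32, 8.49 and 8.40 in controls (difference -0.14, SE 0.0841, adjusted p = 0.945). The test of the change at 8 weeks against that at 4 weeks called no member, where 0.00667% of all genes were called, and 8 members and 1459 of all genes had an unadjusted p under 0.05. Kcnd3 had the lowest p of the members there, with a difference between the times of -0.51 (SE 0.119, adjusted p = 0.472 from limma), followed by Kcna5 at -0.99 (SE 0.329), Kcnma1 at 0.91 (SE 0.307), Kcnn3 at 0.42 (SE 0.15) and Kcnf1 at -0.44 (SE 0.155). Without the third 4-week cKO array this test called Kcnd3, Kcnj12 and Kcnma1, and the share of all genes called there is not given.

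In the hypothalamus at 4 weeks none of 75 members was called, as none of all genes (0%), with 2 members and 410 of all genes at an unadjusted p under 0.05. The differences were small: 53 of 75 lay within 0.1 of zero, and they ran from -0.24 to 0.23. Kcnj6, a G protein-gated channel subunit, was at 6.61, 6.58 and 6.59 in cKO mice and 6.09, 6.55 and 6.45 in controls (difference 0.23, SE 0.0990, adjusted p = 1.0), and on its most variable probe set the sign was reversed. Kcna6, a Kv1 pore, was at 9.10, 9.12 and 9.13 against 9.01, 8.90 and 9.01 (difference 0.14, SE 0.0626). Kcnip1, Kcne1l and Kcnj5 differed by -0.15, -0.20 and -0.23. Groups were apart for 5 members, or 6.67% against 6.97% of all genes.

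At 8 weeks in the hypothalamus again no member was called (0% of all genes), 7 had an unadjusted p under 0.05 (1091 of all genes) and 27 were higher and 48 lower. The actin 3′ minus 5′ signal separated the groups in these arrays, at 1.18, 1.24 and 1.20 in cKO mice against 1.32, 1.59 and 1.46 in controls, as did that of Gapdh (-0.00124 to 0.0273 against 0.0564 to 0.237), and its part in the differences was not tested. Kcnk6, a leak channel of microglia, stood out among these with 7.49, 7.03 and 6.53 in cKO mice and 6.28, 6.28 and 6.46 in controls. All 3 cKO arrays were higher, the third only just, and the difference was 0.68, or 1.60-fold (SE 0.186, adjusted p = 0.384 from limma). Of 16 microglia markers 16 were higher in the same arrays (median 1.34, none called), and their log2 summed level was 13.4 to 15.3 in cKO mice and 13.1 to 13.4 in controls. Their median deviation from the mean of the 12 arrays was 1.86, 1.32 and -0.19 on the cKO arrays, the same order as Kcnk6, and -0.15, -0.50 and -0.31 on the controls. The part of microglia in the difference of Kcnk6 was not tested. Kcnk13, the other leak channel of microglia, did not follow, with a difference of 0.0021 (SE 0.0724). Leaving out single cKO arrays moved the value both ways. Without replicate 1, the highest, the difference of Kcnk6 was 0.44 (SE 0.143, adjusted p = 0.997 from limma) and without replicate 2 it was 0.67 (adjusted p = 0.779). Without replicate 3, Kcnk6 was the only member called, among 589 called genes (difference 0.92, SE 0.137, adjusted p = 0.00289 from limma). In replicate 3 the microglia markers were not high, while leptomeninges and mural cell markers were the highest of the 12 arrays.

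**Figure D3:**
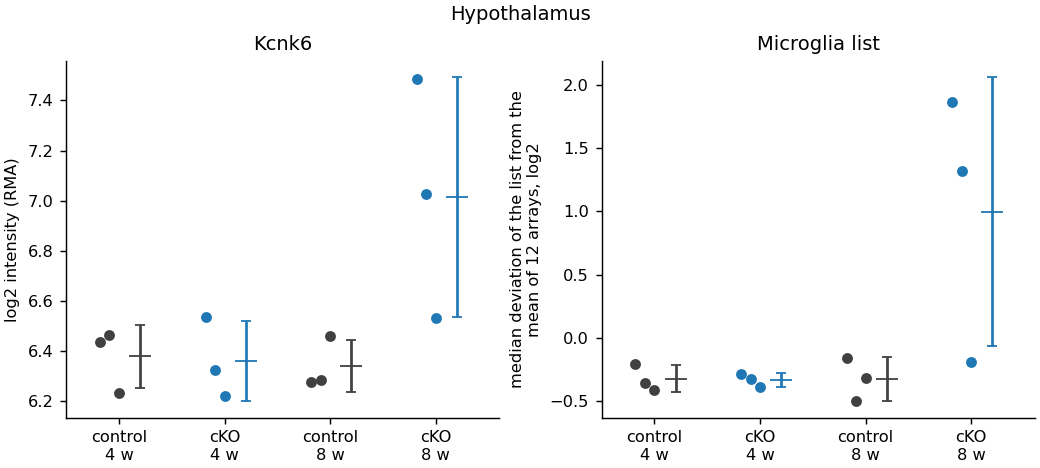
Hypothalamus arrays of each group (points, with mean and SD as bars): log2 intensity of Kcnk6 on the left, and on the right the median deviation of 16 microglia markers from their mean over the 12 arrays, in log2. The first and second 8-week cKO arrays are highest in both panels, and the third lies near the controls.

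Of the other 6 members with an unadjusted p under 0.05 in the 8-week hypothalamus, 5 were lower in cKO mice and Kcnmb1, a beta subunit of the BK channel, was higher by 0.25 (SE 0.111, adjusted p = 0.677) with groups that overlapped. Kcnd3 was at 9.45, 9.44 and 9.47 against 9.80, 9.64 and 9.71, a difference of -0.26 with groups well apart (SE 0.0798, adjusted p = 0.403). Kcnj3 was at 7.91, 8.13 and 8.17 against 8.18, 8.41 and 8.32 (difference -0.24, SE 0.0855, adjusted p = 0.493). Both genes were also lower in every cKO array of the cortex at 8 weeks, in tissue from the same 6 animals. Kcnj14, Kcnu1 and Kcnk3 differed by -0.13, -0.22 and -0.16. Groups were apart for 10 members (2 higher, 8 lower), 13.3% against 13.1% of all genes. The change between the times was called for no gene (0%), with 4 members and 707 of all genes at an unadjusted p under 0.05. Among the members it was -0.31 for Kcnd3, -0.25 for Kcnk3, 0.69 for Kcnk6, 0.34 for Kcne1l and -0.18 for Kcnc1, each with an adjusted p of 0.999. Kcnk6 was called in it once cKO replicate 3 of 8 weeks was left out.

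In the hippocampus at 4 weeks none of 76 members was called (0% of all genes), although 59 were higher and 17 lower, 77.6% against 57.1% of all genes, with a median of 0.0604 against 0.0163. There were 7 members and 709 of all genes at an unadjusted p under 0.05. Kcnh8, an Elk-type Kv pore, was at 5.88, 5.93 and 5.63 in cKO mice and 5.33, 5.45 and 5.43 in controls (difference 0.41, SE 0.0910, adjusted p = 0.990 from limma). Kcnn4 was at 5.67, 5.69 and 5.78 against 5.41, 5.42 and 5.39 (difference 0.30, SE 0.0837), a narrow spread on both sides. On its most variable probe set this difference was -0.013. Kcnab1, Kcnj14 and Kcnh1 differed by 0.36, 0.31 and -0.31, and of these Kcnh1 had groups apart. The widest difference, -0.75 for Kcnma1, rested on cKO arrays spread over 8.46, 7.64 and 6.25, against 8.37, 8.16 and 8.08 in controls (SE 0.417). Groups were apart for 6 members (5 higher, 1 lower), 7.89% against 9.32% of all genes. In the same arrays 15 of 15 microglia markers (median -0.36) and 17 of 18 leptomeninges markers (median -0.47) were lower in cKO mice, none called, and their part in these differences was not tested.

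At 8 weeks in the hippocampus no member was called (0% of all genes), and 4 members and 896 of all genes had an unadjusted p under 0.05. The 5 with the lowest p were Kcnk5 at -0.37 (SE 0.154), Kcnab3 at -0.48 (SE 0.202), Kcna7 at -0.15 (SE 0.0644), Kcnh1 at 0.27 (SE 0.118) and Kcnab2 at 0.24 (SE 0.111), each with an adjusted p of 0.797 from limma. Kcnab3 was at 7.71, 8.63 and 8.55 in cKO mice and 8.79, 8.71 and 8.82 in controls, so that its difference came largely from the first cKO array. Without that array it was -0.18 (SE 0.121). Groups were apart for 6 members, 7.89% against 13.7% of all genes. The change between the times was called for no gene (0%), with 8 members and 867 of all genes at an unadjusted p under 0.05. It was lowest in p for Kcnn4 (-0.46, SE 0.118, adjusted p = 0.842), Kcnh1 (0.59), Kcnh8 (-0.38), Kcnk3 (-0.34) and Kcnab3 (-0.81).

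The first 8-week cKO array of the hippocampus was set apart by members that stand higher in the cortex, a pattern chosen for description after its values were seen. Kcnmb4 was at 9.00 on it and 6.92 and 6.94 on the other cKO arrays, against 7.08, 7.05 and 7.02 in controls. Kcng1 was at 6.84, 4.79 and 4.75 against 4.82, 5.0 and 4.88. These genes lay 3.28 and 2.47 higher in the control cortex than in the control hippocampus, relative to the median of all probe sets. That median was lower in the cortex, so the cortex stands higher on this scale than in the deposited values. Of the 14 members that were over 1 higher in the cortex on this scale, 14 were above the mean of the 8-week controls on this array (median 0.653), against 5 and 6 on the other 2 cKO arrays (median -0.12 and -0.033). The other 59 members had a median of -0.073 on it.

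Across the 73 members, which are not independent replicates, the deviation of this array from the controls had a Pearson r of 0.698 (Spearman rho 0.592) with the difference between cortex and hippocampus levels. For the other 2 cKO arrays r was -0.276 and -0.107, against the same control means. The median deviation of 7 excitatory neuron markers was 0.672 on it and 0.0542 and 0.078 on the others, and their log2 summed level was 13.1, 12.3 and 12.3, against 12.3 or less in controls. Choroid plexus markers were also highest on it, with a median deviation of 0.526 over 6 genes. The other 8-week cKO arrays had -0.105 and -0.044, and the 8-week controls -0.507 to -0.0536. The log2 summed level of these markers was 12.8 on it, against 10.4 or less on the other 8-week arrays and up to 11.2 at 4 weeks. The other 8 marker lists lay between -0.161 and 0.0304 on this array. The source of this shift was not tested. Without this array the 8-week difference of Kcnmb4, 0.57 on all arrays, and that of Kcng1, 0.56, came to -0.13 and -0.13, and still no gene was called.

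**Figure D4:**
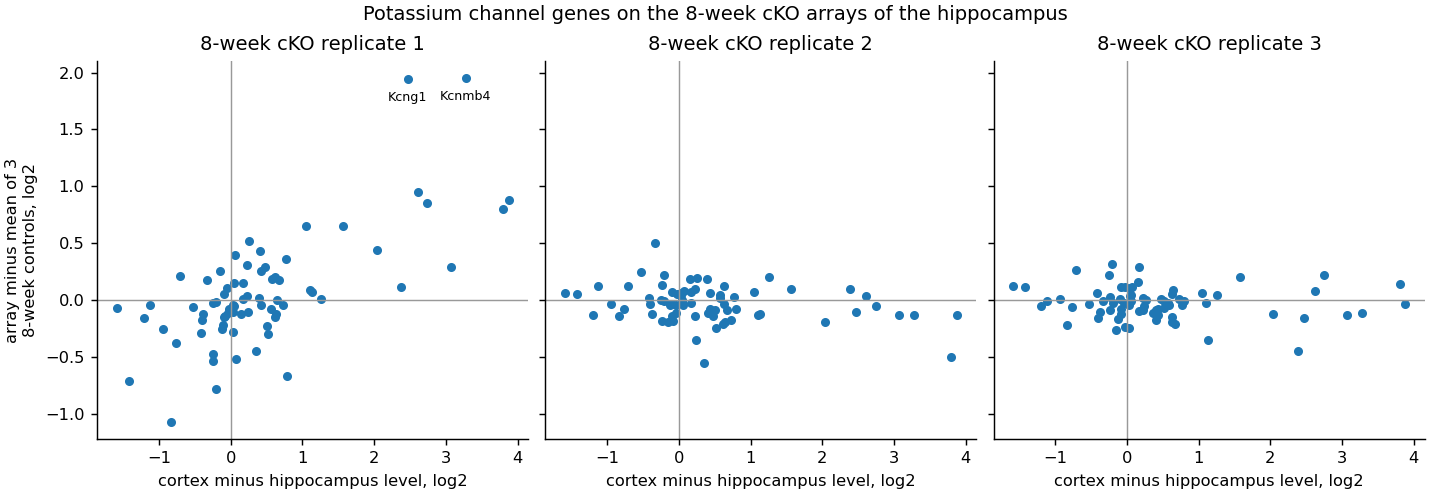
Each point is 1 of 73 channel genes: horizontally its control level in the cortex minus that in the hippocampus, each relative to the median of all probe sets (log2), and vertically its value on an 8-week cKO array of the hippocampus minus the mean of the 3 controls of that time (log2). On replicate 1 the genes that are higher in the cortex lie above 0, led by Kcnmb4 and Kcng1 at 1.95 and 1.94, and on replicates 2 and 3 they lie on both sides of 0.

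Whether the 4-week difference was greater in the cortex than in another tissue was tested directly for the 66 members that passed the filter and had the same probe set in both. Between cortex and hypothalamus 9 members were called (13.6%, against 16.4% of 13684 genes), 7 with a higher change in the cortex and 2 with a lower one. Kcnn3, with -0.46 in the cortex and 0.14 in the hypothalamus, had the lowest p (difference of changes -0.60, SE 0.139, adjusted p = 0.0510 from limma). Kcnj4 differed between the tissues by 0.50 (SE 0.162, adjusted p = 0.0944), Kcnj12 by -0.69 (SE 0.231, adjusted p = 0.1) and Kcnd3 by 0.30 (SE 0.105, adjusted p = 0.107). Kcne1l, at 0.30 in the cortex and -0.20 in the hypothalamus, differed by 0.50 (SE 0.143, adjusted p = 0.0743) although it was called in neither. The other called members were Kcnu1 (0.54), Kcng1 (0.60), Kcna5 (0.70) and Kcnk10 (0.41). With the arrays centred on their medians 4 were called, Kcne1l, Kcnj4, Kcnj12 and Kcnn3.

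Between cortex and hippocampus 2 members were called (3.03%, against 1.34% of 13741 genes). The hippocampus arrays came from other mice than the cortex arrays, so tissue and set of mice cannot be told apart in this test. Kcnn4, a difference of -0.41 in the cortex and 0.30 in the hippocampus, gave a difference of changes of -0.71 (SE 0.193, adjusted p = 0.135 from limma), and Kcnn3 gave -0.55 (SE 0.149, adjusted p = 0.136). Both are calcium-activated channels. The other probe set of Kcnn4, of lower level, differed by 0.14 in the cortex and -0.013 in the hippocampus, so the call rests on the chosen probe set. Both tests use the same cortex arrays, and their calls depended on single arrays: without control replicate 1 of the 4-week cortex neither test called a member. Without control replicate 3 they called 20 and 9, counts for which the share of all genes is not given. Without the third cKO or the first control array of the 4-week hypothalamus the first test called none. The second called none without the second cKO or the second control array of the 4-week cortex, or without the second cKO, the second control or the third control array of the 4-week hippocampus.

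**Figure D5:**
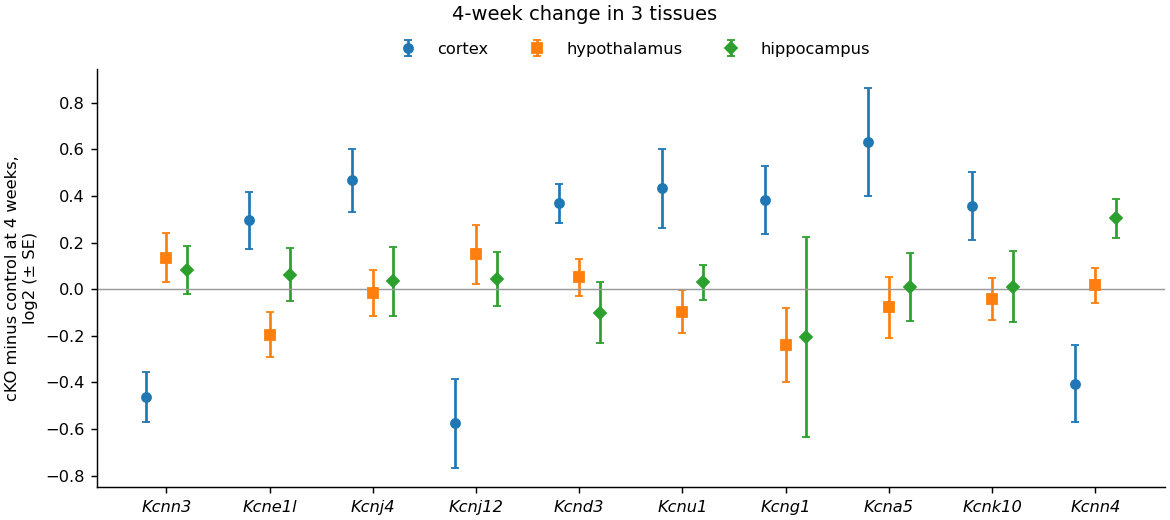
Difference between cKO and control mice at 4 weeks (log2, points) with its SE (bars) in cortex, hypothalamus and hippocampus, for the 10 channel genes whose change was called different between the cortex and another tissue. In the cortex the differences lie between -0.58 and 0.63, and in the hypothalamus and hippocampus all but that of Kcnn4 lie within 0.25 of 0.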

How the data were processed

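RNA from 3 brain regions of 25 mice (12 cKO, 13 control) was hybridized to 36 Affymetrix arrays, 3 for each of 12 groups. The deposited values are log2 intensities, which the authors computed tissue by tissue with RMA, of unstated version. RMA equalizes the distribution of probe values between arrays, so a shift of all genes is reduced, and detection calls were not used here. Of 45101 probe sets, 34958 were annotated to 1 gene and 932 to several, which were left out; 64 were controls.

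Groups came from the labels. For every tissue 1 limma model (version 3.58.1, R 4.3.3) held its 4 groups; two-sided p-values were adjusted over 15000 genes (Benjamini-Hochberg) and called at 15%. Tissue differences used duplicateCorrelation (statmod 1.5.0) for the 11 animals that gave both cortex and hypothalamus (correlation 0.162). The scripts were tested on simulated data. The members, gene lists and named genes were chosen with earlier results of these data known. Named genes are the called members, or the 5 of lowest p where fewer than 5 were called, glial and classic neuronal channel genes, and up to 2 members of each family. Others are examples chosen after their values were seen.

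The number of arrays limits the precision: the smallest exact permutation p of 3 animals against 3 is 0.1. Like-numbered arrays counted as pairs if their deviations from the group means correlated at over 0.1 for all 3 numbers, as in the 8-week hypothalamus (0.198, 0.259 and 0.296). Alternatives were another probe set, other filters, centred arrays, array weights, another variance model, other thresholds, the t-test that the study's methods name for measures of the mice, a replicate block and the omission of each array. The omission of the 3 cortex arrays of largest median distance was added after seeing the data. Protein sequences and genome positions were not used here.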

Additional observations from a re-analysis of the deposited data

Results flagged for a closer look

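The changes at 4 weeks of 10 channel genes were called different between tissues by the test of that difference. Against the hypothalamus these were 9 of 66 members (13.6%, against 16.4% of all genes). In the test against the hippocampus they were 2 of 66 (3.03%, against 1.34% of all genes). Without control replicate 1 of the 4-week cortex neither test called a member. Against the hypothalamus, the change in the cortex was higher by 0.495 for Kcne1l, 0.497 for Kcnj4, 0.304 for Kcnd3, 0.539 for Kcnu1, 0.602 for Kcng1, 0.695 for Kcna5 and 0.408 for Kcnk10, and lower for Kcnn3 (-0.597) and Kcnj12 (-0.689). Against the hippocampus, which came from other mice, it was lower for Kcnn4 (-0.710) and Kcnn3 (-0.545). Arrays that stand apart and markers of other cells are given with these genes in the report, and their part in the differences was not tested. Groups of 3 arrays are too small for a test of single outlying samples.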

How the results depend on the processing

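In the 4-week cortex 4 members were called. The number was 2 with each gene's most variable probe set (Kcnn3 of the 4, and Kcnab1), 2 with the stricter filter, 2 at an FDR of 10%, 0 at 5%, 0 from the 6 arrays of that time alone, 0 by the methods' t-test (which the study names for measures of the mice, and limma for its arrays), 37 with array weights (50.7% of members, 57.2% of all genes) and 36 without the 3 cortex arrays of largest distance (4-week control replicate 3, 4-week cKO replicate 3 and 8-week cKO replicate 2), 49.3% of members against 54.7% of all genes; omitting 1 array gave 0 to 27. The test between the times in the cortex, with 0 calls, gave 25 with array weights (37.2% of all genes), 26 without those 3 arrays (40.4% of all genes) and 0 to 3 without 1 array. The 9 members that differed between cortex and hypothalamus became 4 with centred arrays, 24 with array weights (46.3% of all genes), 0 at 5%, 3 at 10%, 3 without the block for the animal, 27 without the 3 arrays (49.8% of all genes) and 0 to 20 without 1 array. The 2 between cortex and hippocampus became 0 with the most variable probe set, 1 with centred arrays, 14 with array weights (34.9% of all genes), 0 at 5%, 0 at 10%, 13 without the 3 arrays (35.2% of all genes) and 0 to 9 without 1 array. In the hypothalamus, array weights called 2 members at 8 weeks (2.67% of members, 4.69% of all genes). Omitting 1 array gave 0 to 1 there and 0 to 1 in the test between the times. No member was called in the 8-week cortex under any alternative, and the methods' t-test called none in any tissue or time. In the 4-week cortex the most variable probe set called 2.63% of members against 4.33% of all genes. Where no share of all genes is given, a count of members is no result about channel genes. The cause of these shifts was not tested.

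A replicate block gave 2 calls in the 4-week cortex, where like-numbered arrays are not pairs (correlations 0.000823 to 0.0767), and in the hypothalamus, where the 8-week arrays were taken as pairs, it changed no call of a member. With the most variable probe set the sign turned for Kcnma1 in the 8-week cortex (-0.82), Kcnj6 in the 4-week hypothalamus (-0.023) and Kcnn4 in the 4-week hippocampus (-0.013). The other alternatives of the named genes kept the sign: 1120 on the same side of the threshold, 154 losing and 29 gaining a call. Calls at 15% from 3 arrays a group, several of them lost without 1 array, limit what can be said of any single gene.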
